A study of Prunus persica with 2 samples.

Results

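miR396 and the transcripts that the authors list as its cleavage targets were examined in peach (Prunus persica) fruit. The miRNA is the row named miR396 in a list of 886 miRNA sequences, and its transcripts are all those listed with it in a degradome table, 13 of 379. Both were taken by name with no cut on their values, but earlier results of these data were known when the choice was made. The fruit came from yellow-fleshed 'Troubador' trees, 6 years old and field-grown, and was picked at 5 stages, which were 35 and 55 days, 75 days, and finally 90 and 105 days from full bloom. The study states that RNA of all stages was mixed in equal amounts for the small RNA library. It does not give the proportions for the degradome library. There is thus 1 small RNA library and 1 degradome library, no treatment and no replicate, and a difference between stages cannot be seen. Neither table holds levels of fruit genes, so the labelled tissue was not checked against markers.

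In plants, a miRNA guides an Argonaute protein to a matching stretch of an mRNA, which is then cut across from the middle of the miRNA. The miR396 family is known in Arabidopsis and rice for cutting mRNAs of growth-regulating factors (GRFs), transcription factors that work with GIF coactivators to keep cells of young organs dividing. In Arabidopsis the GRF sites lie in the coding region and pair with miR396 through 1 bulged nucleotide of the mRNA, in the part that faces the 5′ part of the miRNA. A degradome library captures the 5′ ends of cut mRNAs, so that reads pile up at the first nucleotide after the cut.

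The peach sequence is shown because the cut is counted along it and because its 5′ part, the seed (nucleotides 2 to 8), separates it from the rest of the list. The seed is in capitals in the first 4 sequences. miR156, miR164 and miR166, other conserved families known for transcription factor targets, are set beside it.
miR396: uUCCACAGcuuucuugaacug
miR156: uUGACAGAagaaagagagcac
miR164: uGGAGAAGcagggcacgugca
miR166: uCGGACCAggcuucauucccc
In the next sequences the capitals mark nucleotides 10 and 11, between which the cut is made, on miR396 and on its computed full complement, the stretch that would pair with every base.
miR396 with the cut marked: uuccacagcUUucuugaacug
full complement of miR396: caguucaagaAAgcuguggaa
Of the 886 listed sequences, 0 others carried the miR396 seed and 0 others lay within 2 single-base changes, insertions or deletions of it. The nearest listed sequence was 8 such changes away. The list holds 1 row for each known miRNA name, so it was not made to show variants of miR396, and their reads were not analysed here.

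miR396 had 10991 reads in the small RNA library, with an exact 95% Poisson interval of 10787 to 11198, and stood 8th in the list. This was 0.476% of the 2308209 listed reads (exact Clopper-Pearson 95% interval 0.467 to 0.485%). The median listed sequence had 4.5 reads, so miR396 was 2442 times as high. Its neighbours were miR858 above it, with 12878 reads (12657 to 13102), and miR482 below it, with 9377 reads (9188 to 9569). The 3 counting intervals do not overlap, but they cover counting error only, since amplified reads are not independent molecules. Against the comparison families, miR396 was 1.48 times as high as miR164 (7402 reads), 0.279 times as high as miR166 (39453 reads) and 0.00575 times as high as miR156 (1910151 reads).

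**Figure D1:**
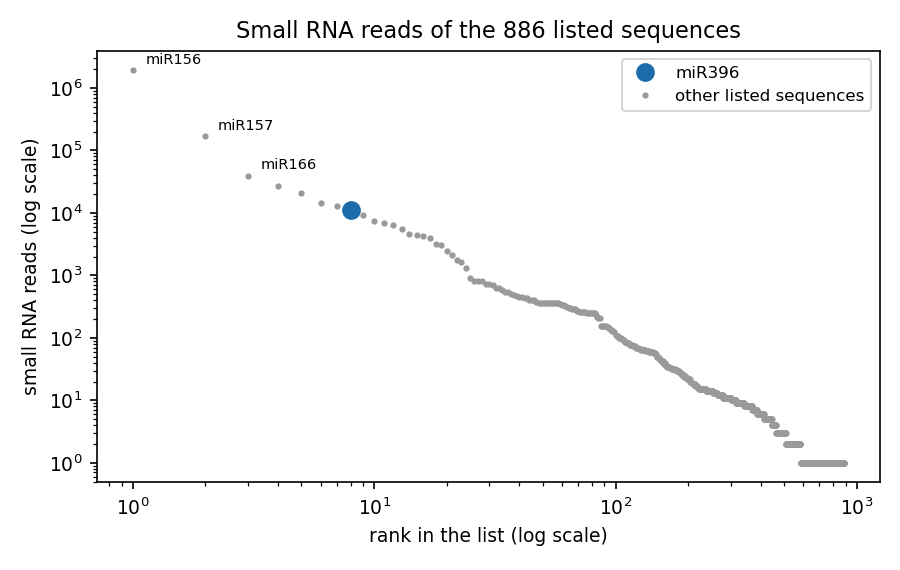
Small RNA reads (vertical, log scale) against rank (horizontal, log scale) for the 886 listed sequences, 1 point each, from 1 library. miR396, the large point, stands 8th with 10991 reads, and miR156 leads with 1910151.

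The 13 miR396 sites held 555 degradome reads, very unevenly spread. ppa022685m had 216 reads (exact Poisson 95% interval 188 to 247), ppa021277m had 113 (93.1 to 136) and ppa022199m had 112 (92.2 to 135). Together these 3 transcripts held 79.5% of the reads (75.9 to 82.7%), and ppa022685m alone held 38.9% (34.8 to 43.1%). A middle group followed, with 47 reads on ppa011917m (34.5 to 62.5), 32 on ppa019623m (21.9 to 45.2), 19 on ppa003017m (11.4 to 29.7) and 6 on ppa019752m (2.20 to 13.1). The remaining 6 transcripts had 1 to 3 reads each. ppa004340m had 3, ppa005426m and ppa006912m had 2 each, and ppa015791m, ppa017355m and ppa024293m had 1 each. In this order of 13 counts, only 2 of the 12 neighbouring steps have intervals that do not overlap, which are ppa022685m over ppa021277m and ppa022199m over ppa011917m. At the low end, 1 read has an interval of 0.0253 to 5.57, so no order among the 6 lowest was detectable at this depth.

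**Figure D2:**
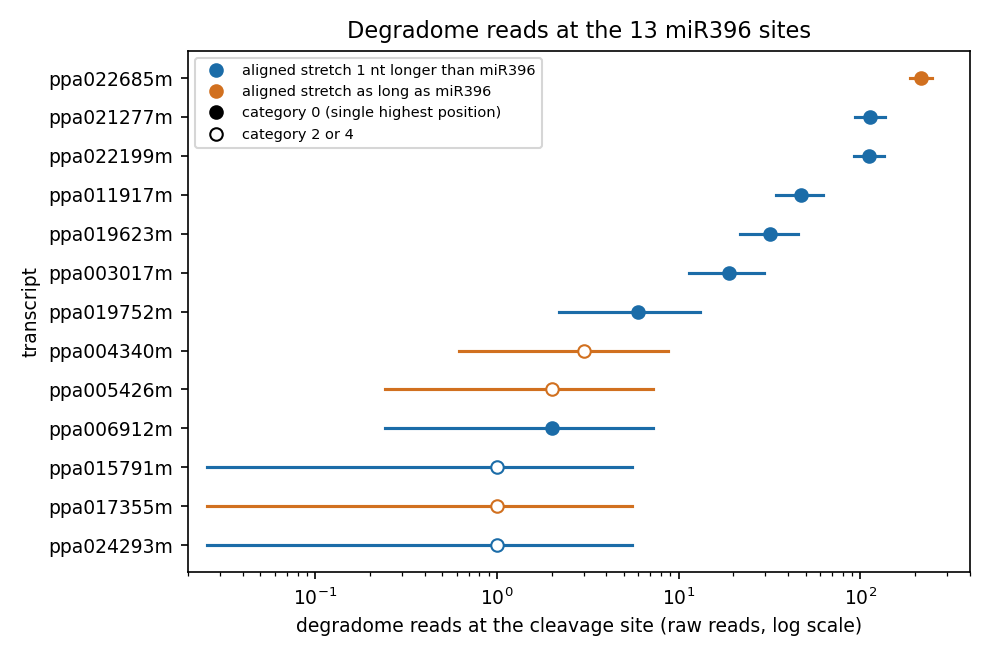
Degradome reads (horizontal, log scale) at the miR396 site of each of the 13 transcripts (vertical), with exact Poisson 95% intervals as lines. Colour gives the length of the aligned stretch, and filled points are category 0 sites. ppa022685m leads with 216 reads, and 7 of the 8 filled points have a stretch 1 nt longer than miR396.

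The peak category says how a site stands among all degradome positions of its own transcript. Category 0 is the single highest position, category 2 lies above the median but below the highest, and category 4 is a single read. Of the 13 miR396 sites, 8 were category 0, against 14.5% of all 469 listed pairs of a miRNA and a transcript. These 8 held 547 of the 555 reads, and the other 5 held 8. The category 0 sites were those of ppa022685m, ppa021277m, ppa022199m, ppa011917m, ppa019623m, ppa003017m, ppa019752m and ppa006912m, the last with only 2 reads. ppa004340m and ppa005426m were category 2, and the 3 transcripts with 1 read were category 4. The median of the 8 category 0 sites was 39.5 reads, with a range of 2 to 216, and that of the 60 category 0 pairs of all other miRNAs was 32.5 reads, with a range of 3 to 3942. The 2 ranges overlap, and the highest category 0 site of the table was not one of miR396.

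miR396 had more category 0 pairs than any other of the 176 miRNA names in the degradome table, where the next number was 4. As a share of pairs, its 8 of 13 was not the highest. miR827, miR1509, miR319, miR167, miR5266 and m0128-3p had 1 pair each, which was category 0. Among names with more pairs, miR858, m0091-5p and m0126-5p had 4 of 5 each. miR397, miR165 and the comparison family miR166 had 3 of 4 each, and miR393 had 2 of 3. All other names had a lower share than miR396. m0091-5p and m0126-5p have the same sequence and the same degradome counts, so they are not separate cases. miR396 was 4th by number of pairs and 2nd by total degradome reads. The 3 names with more pairs were m0246-3p with 43, miR414 with 26 and miR4993 with 18, and each of them had 0 category 0 pairs. In the small RNA library these 3 had 29, 2 and 1 reads. The comparison families had fewer pairs than miR396. miR156 had 6 pairs, 3 of them category 0, and 113 degradome reads, miR164 had 6 pairs, 2 of them category 0, and 174 reads, and miR166 had 4 pairs, 3 of them category 0, and 80 reads. The order of the small RNA counts was thus not that of the degradome reads, with miR156 at 174 times miR396 in the first and at 0.204 times miR396 in the second. The libraries were made separately, and the level of each mRNA was not measured.

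**Figure D3:**
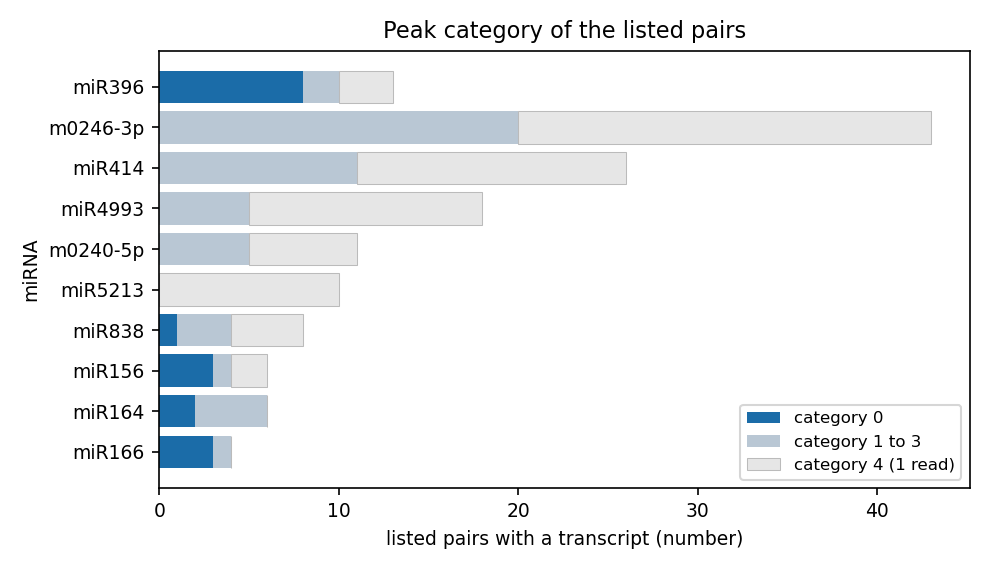
Number of listed pairs (horizontal) for miR396, for the 6 other miRNA names with the most pairs and for miR156, miR164 and miR166 (vertical), divided by peak category. miR396 has 8 category 0 pairs of 13, and m0246-3p, miR414 and miR4993 have 0.

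No other miRNA was listed on any of the 13 transcripts. Over the whole list, 41 of the 379 transcripts, or 10.8%, were listed with more than 1 miRNA name. For as few as 13 transcripts, 0 is close to that share and is not a result about miR396. For all 13 sites the authors' normalized reads equal the raw reads, as they do for 78.7% of all pairs. The authors' normalization thus left every miR396 count as it was. Counting each transcript position 1 time over the table leaves 393 sites with 8901 reads, of which miR396 held 3.31% of the sites and 6.24% of the reads (5.74 to 6.76%).

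The sites fall into 2 classes by the length of the aligned stretch. On 9 transcripts the stretch was 22 nt, 1 nt longer than the 21-nt miRNA, and on 4 it was 21 nt. A longer stretch was found in 15.4% of all listed pairs, and in 63 of the 456 pairs of all other miRNAs. The 9 transcripts with the longer stretch are ppa021277m, ppa022199m, ppa011917m, ppa019623m, ppa003017m, ppa019752m, ppa006912m, ppa015791m and ppa024293m. Their reads were 113, 112, 47, 32, 19, 6, 2, 1 and 1, with a median of 19, and 7 of the 9 were category 0. The 4 with a stretch of equal length were ppa022685m with 216 reads, ppa004340m with 3, ppa005426m with 2 and ppa017355m with 1, with a median of 2.5, and 1 of the 4 was category 0. The classes overlap in reads, because ppa022685m is above all others and 3 of the longer class have 1 or 2 reads. The longer class held 333 of the 555 reads, which is 60.0% (55.8 to 64.1%), and without ppa022685m it held 98.2%.

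The place of the extra nucleotide was read from the cut. Counted from the aligned end that faces the 5′ end of miR396, the cut lay at position 11 in the 9 longer stretches and at position 10 in the 4 others. Counted from the opposite end of the stretch, it lay at position 12 in all 13. The part of the stretch that faces the 3′ part of miR396 thus had the same length at every site, and the extra nucleotide lay between the cut and the end that faces the 5′ end of the miRNA. Its exact place is not given by the table, and the site sequences were not analysed here. When the extra nucleotide is allowed for, the cut of all 13 sites falls across from nucleotide 10 of miR396. The search that made the table looks for reads at this nucleotide, so this is a property of the list and not a finding.

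An extra nucleotide on this side was found in 5.33% of all listed pairs, which is 25 pairs, and miR396 supplied 9 of them. All other miRNAs had 16 in 456 pairs, or 3.51%, spread over 13 miRNA names. Among them are single pairs of the conserved miR162, with 73 reads on ppa000070m (score 2, category 2), miR167, with 18 reads on ppa003267m (category 0), and miR159, with 4 reads on ppa017436m (category 0). An extra nucleotide on this side was thus not limited to miR396. Of the 13 names only miR1097 had more than 1 such pair. Its 4 pairs had 2 raw reads and 0.5 normalized reads each, and it was read 1 time in the small RNA library. Another 47 pairs had the extra nucleotide on the opposite side, facing the 3′ part of the miRNA, and miR396 had 0 of them. Category 0 was given to 7 of the 9 miR396 pairs with an extra nucleotide toward the 5′ end, to 2 of the 16 pairs of this kind of other miRNAs, and to 0 of the 47 pairs of the opposite kind. The comparison families miR156, miR164 and miR166 had 0 pairs with a longer stretch, unlike miR159, miR162 and miR167. These are counts within 1 list, and no test was made of them, since transcripts of 1 library are not replicates.

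**Figure D4:**
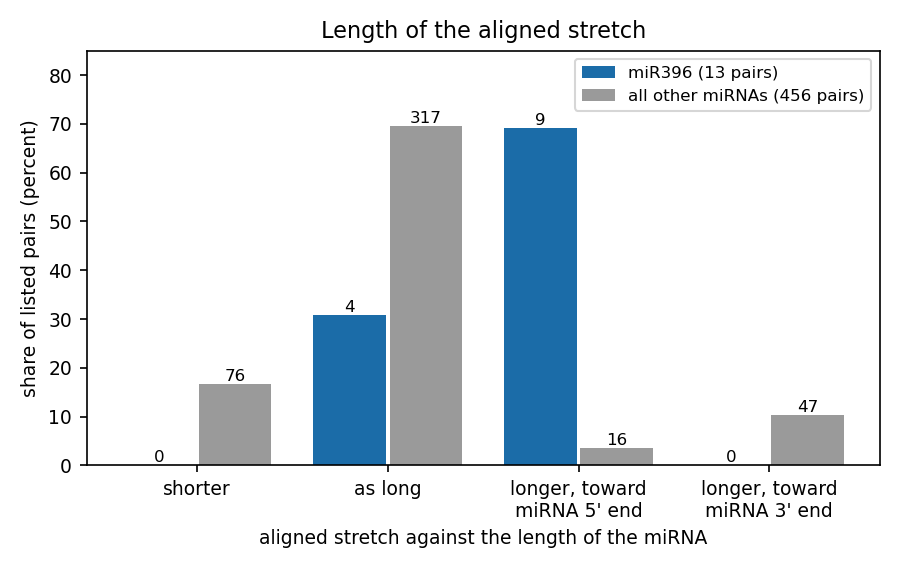
Share of listed pairs (vertical, percent) by length of the aligned stretch and side of the extra nucleotide (horizontal), for the 13 pairs of miR396 and the 456 pairs of all other miRNAs, with the number of pairs above each bar. 9 miR396 pairs and 16 others have the extra nucleotide toward the miRNA 5′ end, and 0 and 47 toward the 3′ end.

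The alignment score is 0 for full pairing, grows with mismatches, gaps and G:U pairs, and reaches 4 in this list. The lowest score among the miR396 sites was 3, and full pairing was listed for 2 pairs of other miRNAs. A score of 3 was given to 6 transcripts, 3.5 to 4 and 4 to 3, and scores of 3 or more made up 82.3% of all listed pairs. All 6 sites with score 3 had the longer stretch, and they were those of ppa022199m, ppa019623m, ppa019752m, ppa006912m, ppa015791m and ppa024293m, with 112, 32, 6, 2, 1 and 1 reads. The same score thus covered both the third highest and the lowest counts. The transcripts with the 2 highest counts, ppa022685m and ppa021277m, had the poorest score of 4, as did ppa004340m with 3 reads. The sites with score 3.5 had 47 reads on ppa011917m, 19 on ppa003017m, 2 on ppa005426m and 1 on ppa017355m. Within miR396 a better score did not go with more reads.

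The authors' p, given by CleaveLand for each pair and not adjusted, was under 0.05 for 8 miR396 pairs, the same 8 that were category 0, against 18.6% of all listed pairs. All 68 category 0 pairs of the list had p under 0.05, and 0 of the 145 category 2 and 222 category 4 pairs did. The count by p thus repeats the count by category and is not a separate result. Among the 8, the p was 0.0156 for ppa011917m and ppa003017m, 0.0159 for ppa022685m and ppa021277m, and 0.0233 for ppa022199m, ppa019623m, ppa019752m and ppa006912m. For the other 5 it ran from 0.734 to 0.947. The p was the same wherever miRNA, score and category were the same, in the whole table, and so took account of the number of reads only through the category. ppa022199m with 112 reads and ppa006912m with 2 have the same p. Adjusted by the Benjamini-Hochberg method over all 469 listed pairs, the lowest miR396 value was 0.125, which was also the lowest of the whole table, so that 0 of the 469 pairs stayed under 0.05. Pairs that the authors may have tested but not listed could not enter this adjustment.

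Along the transcripts, the sites lay between nucleotides 135 and 1176 from the transcript start, with a median of 569. In the longer class they lay at nucleotides 347 (ppa015791m), 368 (ppa011917m), 383 (ppa022199m), 452 (ppa021277m), 569 (ppa024293m), 600 (ppa006912m), 716 (ppa019752m), 749 (ppa019623m) and 928 (ppa003017m). In the class of equal length they lay at nucleotides 135 (ppa022685m), 198 (ppa017355m), 740 (ppa005426m) and 1176 (ppa004340m). Counted in nucleotides from the transcript start, the longer class thus spanned a narrower range, inside that of the other class. The upper end of the wider range is the site of ppa004340m, with only 3 reads. Places relative to the length of each transcript were not analysed here. The sites with over 100 reads lay within the first 452 nucleotides, but so did ppa015791m and ppa017355m with 1 read each. Whether a site is in the coding region was not analysed here, because the ends of the coding regions were not at hand.

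**Figure D5:**
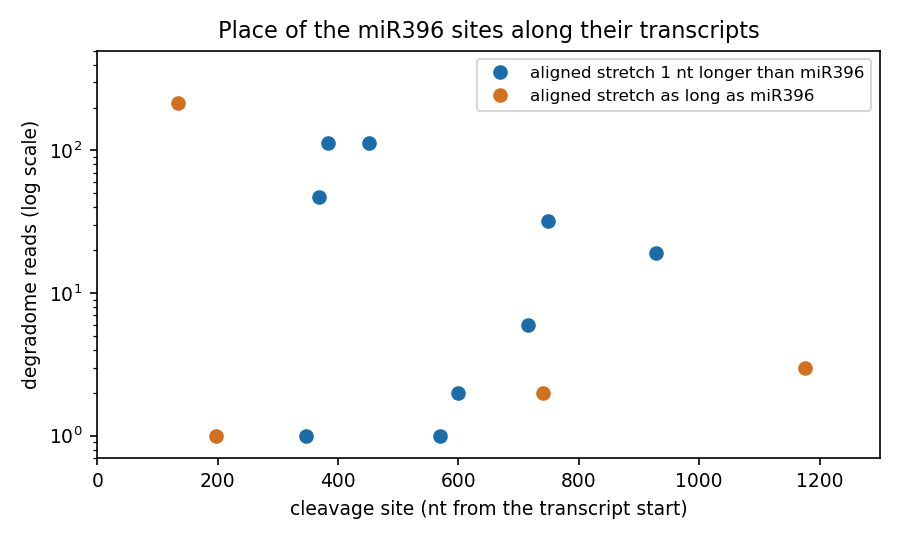
Degradome reads (vertical, log scale) against the cleavage site in nucleotides from the transcript start (horizontal) for the 13 miR396 sites, coloured by the length of the aligned stretch. The 3 sites with over 100 reads lie at nucleotides 135, 383 and 452, and sites with 1 read at 198, 347 and 569.

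Names could be given to few of the transcripts. The 4 transcripts with a stretch of equal length are also on the study's own list of miR396 targets predicted from sequence, and 0 of the 9 with a longer stretch are. The rules stated for that list count mismatches and G:U pairs and name no gap. A site with an extra nucleotide may thus have had no way onto it, and the split is not a finding about the transcripts. By the best match of their proteins in Arabidopsis, ppa005426m is AGD2, an L,L-diaminopimelate aminotransferase of lysine synthesis (2 reads, category 2), and ppa004340m is a protein with a ubiquitin-associated domain (3 reads, category 2). ppa022685m, with the most reads, matches an Arabidopsis protein of unknown function, and ppa017355m (1 read) has no match. The 9 transcripts with the longer stretch had no description in the sources used here, and 0 of the 13 identifiers were found in the RefSeq gene table. The descriptions came from the study's lists of predicted targets, so a transcript absent from those lists could have none. Whether the 9 with the longer stretch encode GRFs was not tested. The descriptions found, none of which names a GRF, belong to the other 4 and say nothing about these 9.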

How the data were processed

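Both deposited tables were used, 1 small RNA and 1 degradome library of pooled 'Troubador' fruit. The deposited raw read counts per miRNA were made by the authors by removing low-quality, adaptor and short reads and reads of other RNA classes, followed by alignment with the plant miRNAs of miRBase or prediction with MIREAP. In the deposited degradome table, made by the authors with CleaveLand 3.0 and targetfinder, raw reads count the fragments that start at the site, normalized reads are a signal with no stated rule, and the p-value, the alignment score and the category score are the authors'. Thresholds, the release of the transcripts and the depth of the degradome library were not given in the sources used here.

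The labels do not say which library is which, so this was read from the columns of the tables. Names were joined between the tables. The aligned length is the end minus the start plus 1, and positions of the cut were counted from either end of the stretch. In 11 cells, none of them of miR396, a spreadsheet had turned the stretch into a date, which was read back. Intervals are exact Poisson and Clopper-Pearson intervals at the 95% level and cover counting error only. No test between conditions was possible. The rule for named transcripts was all those listed with miR396. Members, comparison families and alternatives (read minimum, score, category, p, denominator, normalized reads) were chosen with earlier results of these data known. Descriptions of transcripts come from the study's target tables. Python 3.11.15, pandas 2.3.3, SciPy 1.17.1 and matplotlib 3.10.9 were used, and the position counts and intervals were tested on simulated data.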

Additional observations from a re-analysis of the deposited data

How the results depend on the processing

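Of 17 alternatives, 9 kept the value within its counting interval, within 1 SD of the site positions or, for counts, within a factor of 1.5. Some of these 9 could not have changed it. Sequences within 2 edits of miR396 numbered 0, normalized reads equal raw reads at all 13 sites, and the aligned start lies at a fixed distance from the cut. The share of miR396 was 0.487% of the reads of known miRNAs and 2.76% of the listed reads without miR156. Of the 13 pairs, 7 had at least 5 reads, 8 were category 0 and 6 had a score of at most 3. Of the 8 pairs with the authors' p under 0.05, 4 had p under 0.02 and 0 stayed under 0.05 after Benjamini-Hochberg adjustment over all listed pairs, as did 0 of all 469 pairs. Without ppa022685m the longer stretches held 98.2% of the miR396 reads. Normalized reads changed no share. No paired analysis was possible because there is 1 library of each kind and no comparison between groups. The depth limits the sites with 1 to 3 reads, whose order was not detectable.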
